A study of Mus musculus with 30 samples.

Results

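The acetylation of histone H3 at lysine 27 (H3K27ac) was compared between mouse cells that had spent 24 h without estradiol (E2) and then 96 h with it, and the same cell line kept in E2 throughout. Each condition was represented by 1 chromatin immunoprecipitation and sequencing (ChIP-seq) library and the peak list made from it, so 2 of the 30 samples of the series were compared, chosen by the target and the treatment in their labels. The list after withdrawal and restoration, called the 24 h list below, held 36845 peaks, and the E2 list held 27876. All cells were ER-Hoxa9-Lys-GFP cells of strain C57BL/6, grown in medium with stem cell factor. They carry HOXA9 fused to the estrogen receptor, and this fusion was present in the E2 cells too. The other 4 H3K27ac lists are given beside the comparison. Of these, 3 came from cells without E2 for 40, 56 or 72 h and then with it for 80, 64 or 48 h, and held 28791, 6356 and 24930 peaks. The last came from cells without E2 for 120 h with no restoration and held 48710 peaks.

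HOXA9 is a homeodomain transcription factor that keeps myeloid progenitors immature, and its fusion to the estrogen receptor is active only while E2 is bound. Withdrawing E2 therefore lets the cells begin to differentiate, and restoring it switches the factor back on. H3K27ac is laid down by the acetyltransferases CBP and p300 at active promoters and enhancers, and dense runs of acetylated enhancers are known to lie around genes of cell identity. The same lysine can instead carry trimethylation (H3K27me3), the mark of Polycomb repressive complex 2, and a single histone tail cannot hold both.

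The lists give the chromosome, start and end of each peak and no height, so the measurements here are the presence of a peak, its width and the length covered by peaks. Positions are on mm9, the build that fits the coordinates. Gene names, and with them a check of the cell line against its marker genes, were not analysed here because no gene annotation of that build was used. With 1 library a side no difference has a replicate check and no p-value is given. The 95% intervals (exact Clopper-Pearson) cover counting error over peaks only. The read depth is unknown, and fewer acetylated cells cannot be told apart from less acetylation per cell. The narrowest peak was 146 bp in each of the 6 lists. The 3 other restored lists lay closer to the 24 h list than to the E2 list: 89.0% of the 40 h peaks, 93.5% of the 56 h peaks and 78.2% of the 72 h peaks overlapped a 24 h peak, and 64.8%, 43.9% and 59.2% of them overlapped an E2 peak. The 24 h list is also the longer of the pair, and the part of list length in these shares was not tested.

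The first question was how much H3K27ac differed between cells returned to E2 after 24 h and cells that never left it. A peak was called in a single list if no peak of the other list overlapped it by 1 bp. By this measure 15301 of the 36845 peaks of the 24 h list were absent from the E2 list (41.5%, 41.0 to 42.0), and 7073 of the 27876 peaks of the E2 list were absent from the 24 h list (25.4%, 24.9 to 25.9). The peaks of the 24 h list covered 14.7 Mb and those of the E2 list 10.7 Mb, a ratio of 1.37, close to the ratio of 1.32 in peak number. The length covered in both lists was 7400081 bp, or 50.4% of the 24 h length and 69.1% of the E2 length. The longer list has more peaks to be absent from the shorter, so the 2 shares cannot be read apart from list length. With the 24 h list cut to its 27876 widest peaks, 34.5% of each list was absent from the other; lists of equal length with mostly single pairs give nearly equal shares by construction.

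Peaks at the limit of the definition were few. Among peaks of the 24 h list, 242 overlapped E2 peaks by under 50 bp and 244 counted as absent lay within 50 bp of an E2 peak. The corresponding numbers for peaks of the E2 list were 168 and 175. Most shared peaks were paired singly: 20471 of the shared 24 h peaks met 1 E2 peak and 1073 met 2 or more, whereas 19056 of the shared E2 peaks met 1 peak of the 24 h list and 1747 met 2 or more.

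Peaks found in a single list were mostly narrow, on both sides. Those of the 24 h list alone had a median width of 239 bp (quartiles 179 and 348), against 387 bp for its shared peaks. Those of the E2 list alone had a median of 201 bp (quartiles 166 and 271), against 362 bp for its shared peaks. In the narrowest 10% of each list, 67.2% of the 24 h peaks and 60.5% of the E2 peaks were absent from the other list, a ratio of 1.11. In the widest 10% the shares were 11.9% (10.9 to 13.0) for the 24 h list and 1.44% (1.03 to 1.95) for the E2 list, a ratio of 8.32. The share of the 24 h list was the higher in all 10 width classes.

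**Figure D1:**
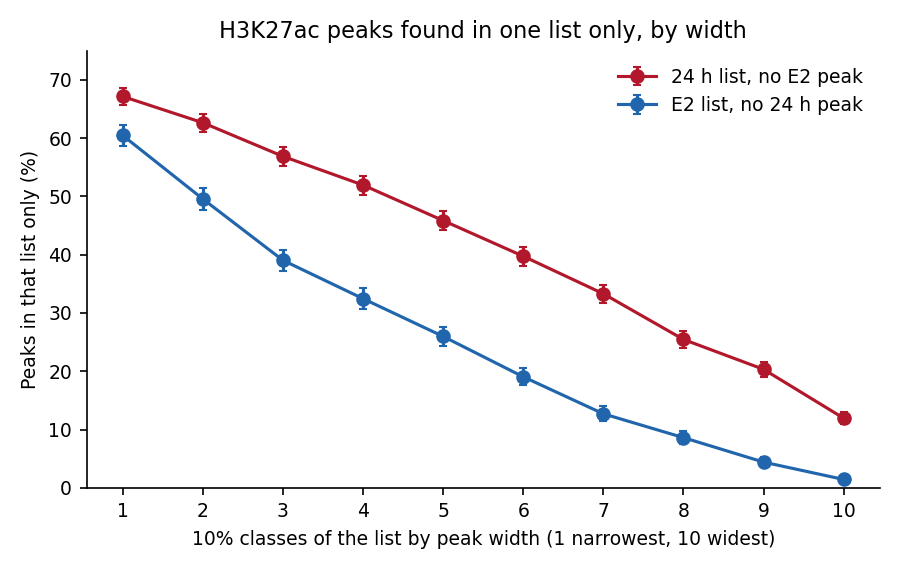
Share of peaks (%) absent from the other list, for each 10% of the 24 h list (red) and of the E2 list (blue) ranked by width. Bars are 95% exact binomial intervals; the share runs down to 11.9% in the widest 10% of the 24 h list and to 1.44% in that of the E2 list.

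The ratio between the lists was largest among wide peaks. Of the peaks at least 500 bp wide, 1609 of 9096 in the 24 h list had no E2 peak (17.7%, 16.9 to 18.5), against a share of 41.5% over that whole list, and 223 of 6404 in the E2 list had no 24 h peak (3.48%, 3.05 to 3.96), against 25.4% over that list. At 1000 bp or more there were 123 such peaks in the 24 h list, of 1426, and 2 in the E2 list, of 859. At 1500 bp or more the counts were 23 of 313 in the 24 h list and 0 of 174 in the E2 list, where a count of 0 allows a share of up to 2.10% (exact interval). Cutting the 24 h list to its 27876 widest peaks, to match the length of the E2 list, cannot change the counts of the 24 h list at these widths. It raised those of the E2 list to 410 at 500 bp or more and to 9 at 1000 bp or more.

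The 10 widest peaks of the 24 h list without an E2 peak measured 1690 to 3282 bp. Here and below, covered lengths count only bp within the borders of the named region. No list can therefore exceed the length of that region, and a peak that reaches beyond it is counted in part. The widest lay at chr13:55121688-55124969. The E2, 24, 40, 56, 72 and 120 h lists covered 0, 3282, 2579, 2388, 2352 and 3271 bp of it. Peaks of the cells left without E2 thus covered nearly all of this peak, which was present at 24 h after 96 h back in E2. The second, chr1:155449100-155451715, lay 69290 bp from the nearest E2 peak. In the same order of lists, 0, 2616, 2516, 2030, 778 and 225 bp of it were covered. This peak had a different profile, with much of it covered after a brief withdrawal and little after a long one.

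The other 8 ranged from 0 to 1770 bp at 120 h. The peak chr8:47934512-47936944 (2433 bp at 24 h) kept 1770 bp at 120 h, and chr9:40383439-40385229 (1791 bp) kept 1764 bp. At chr13:117821103-117822849 (1747 bp) the 120 h length was 1496 bp. By contrast, chr5:128387969-128390060, 2092 bp wide at 24 h, had a covered length of 1597, 1178, 146 and 0 bp in the 40, 56, 72 and 120 h lists. The peaks chr17:44842569-44844452 (1884 bp at 24 h) and chr18:15354442-15356262 (1821 bp) had 0 bp at 120 h, with 191 and 304 bp at 72 h. The remaining peaks, chr16:35753773-35755762 and chr14:79918033-79919722, had 1990 and 1690 bp at 24 h and 454 and 655 bp at 120 h. All 10 were also covered in each of the other restored lists, the 56 h list with its 6356 peaks included. They were chosen as wide 24 h peaks, and most peaks of those lists overlapped a 24 h peak. Their coverage there therefore follows in part from the choice.

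On the E2 side the widest absent peaks were shorter and were covered little in the other lists. They were chosen for lacking a 24 h peak, and most peaks of the other restored lists overlapped one. The widest, chr5:125638338-125639484, covered 1147 bp in E2 and 0 bp in each of the other 5 lists. The next, chr3:88986787-88987823, covered 0 bp at 24 h, against 1037 bp in E2, and had 379 and 147 bp in the 40 and 72 h lists. Of the 10 widest (851 to 1147 bp), all had 0 bp in the 56 h list and 8 had 0 bp in the 120 h list. The 2 exceptions were chr5:102910190-102911129, whose 940 bp in E2 were covered over 881 bp in the 120 h list, and chr10:79409070-79409971, where the lengths were 902 and 809 bp. These 2 regions held long peaks in the E2 list and in the list without E2, and no peak at 24 h.

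**Figure D2:**
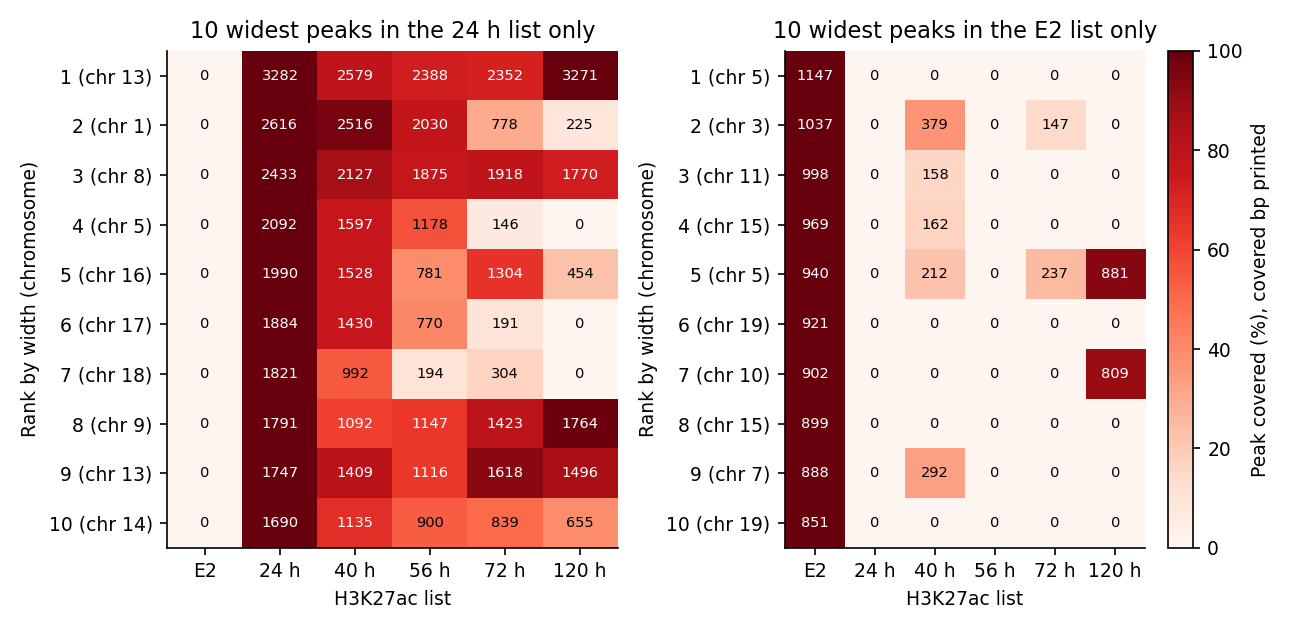
Length covered by H3K27ac peaks (bp printed, shading as % of the peak) in all 6 lists at the 10 widest peaks of the 24 h list without an E2 peak (left) and the 10 widest peaks of the E2 list without a 24 h peak (right). All 10 on the left are covered at 40, 56 and 72 h, while on the right 0 of 10 are covered at 56 h. Those on the left were chosen as wide 24 h peaks and those on the right for lacking a 24 h peak. Of the 56 h peaks, 93.5% overlapped a 24 h peak.

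The second question was where these peaks stood in the other conditions. Those lists played no part in choosing the peaks, but they come from the same cell line and differ in length. Of the 40, 56 and 72 h peaks, 89.0%, 93.5% and 78.2% overlapped a 24 h peak. Peaks of the E2 list alone were chosen for lacking a 24 h peak. Their low shares in these lists, at 56 h above all, therefore follow in part from the choice. Of the peaks of the 24 h list alone, the 40 h list held 47.2% (46.4 to 48.0), the 56 h list 17.5% (16.9 to 18.2), the 72 h list 31.4% (30.7 to 32.2) and the 120 h list 42.7% (41.9 to 43.5). Peaks of the E2 list alone were found there in 11.1% (10.4 to 11.9), 0.707% (0.525 to 0.931), 7.52% (6.92 to 8.16) and 35.2% (34.1 to 36.4) of cases. Peaks of the 24 h list that E2 shared were found in 79.6%, 12.7% (12.2 to 13.1), 62.5% and 73.6%. In the 56 h list the share was thus higher for peaks of the 24 h list alone than for shared ones, and in the other 3 lists it was lower.

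Among wide peaks the difference at 56 h was larger. In the widest 25% of the 24 h list, 1635 peaks had no E2 peak. Of these, 87.8%, 55.7% (53.3 to 58.1), 62.4% and 59.3% were found in the 40, 56, 72 and 120 h lists. Shared peaks of the same width class, 7576 in number, were found in 96.5%, 24.2% (23.2 to 25.2), 81.7% and 82.9%. All 123 peaks of 1000 bp or more that E2 lacked were found in the 40 h list, and the 56, 72 and 120 h lists held 108, 94 and 75 of them. Shared peaks of that width in the 24 h list, 1303 in all, were found in 99.8%, 49.2%, 89.3% and 85.1% of cases.

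**Figure D3:**
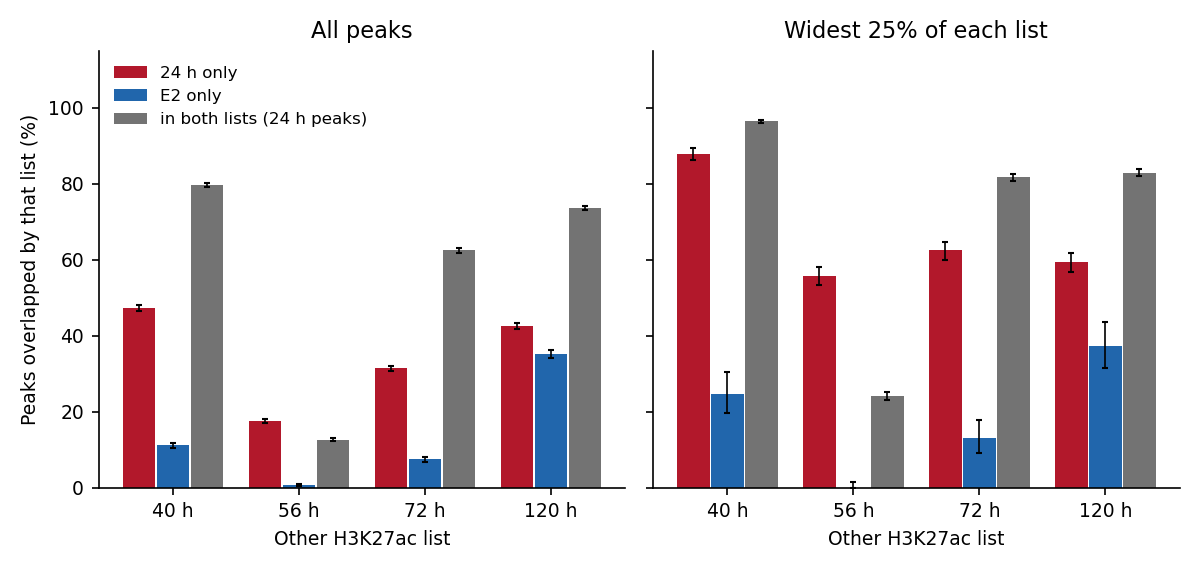
Share of peaks (%) overlapped by each of the other H3K27ac lists, for peaks of the 24 h list alone (red), of the E2 list alone (blue) and shared peaks counted in the 24 h list (grey); bars are 95% exact binomial intervals. In the widest 25% (right), 55.7% of the peaks of the 24 h list alone and 24.2% of the shared ones are found at 56 h, and 0 of 254 of the peaks of the E2 list alone. The last were chosen for lacking a 24 h peak, and 93.5% of the 56 h peaks overlapped one.

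Sorted by where else they occurred, the 15301 peaks of the 24 h list alone fell into 4 classes. One of them, 4702 peaks (30.7%), occurred in no other list and was narrow, with a median of 195 bp and no peak of 1000 bp. Another 4069 (26.6%) occurred in a further restored list but not at 120 h, with a median width of 276 bp and 48 peaks of 1000 bp or more. The largest class, 4821 (31.5%), occurred at 120 h and in another restored list (median 304 bp, 75 peaks of 1000 bp or more). The last 1709 (11.2%) occurred at 120 h and in no other restored list (median 200 bp). In all 4 restored lists but neither in E2 nor at 120 h there were 300 peaks, with a median width of 445.5 bp, of which 23 were 1000 bp or wider.

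The 7073 peaks of the E2 list alone were divided differently. Of these, 4106 (58.1%) occurred in no other list, and 1793 (25.4%) occurred at 120 h but in no restored list. A restored list other than 24 h held 474 (6.70%) that were absent at 120 h, and 700 (9.90%) were found both at 120 h and in such a list. Most E2 peaks that were missing at 24 h were thus missing from the other restored lists as well, and those that recurred did so mainly at 120 h. This follows in part from the choice, since most peaks of the other restored lists overlapped a 24 h peak.

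Distance to the nearest peak of the other list, shared or not, separated peaks close to such a peak from remote ones. Of the peaks of the 24 h list alone, 32.1% lay within 500 bp of an E2 peak, 30.1% between 500 and 5000 bp, 25.9% between 5000 and 50000 bp and 12.0% (1831 peaks) further away. Among peaks of the E2 list alone, 38.0% lay within 500 bp of a 24 h peak and 6.19% (438 peaks) more than 50000 bp away. The median distance was 1532 bp for peaks of the 24 h list alone and 931 bp for those of the E2 list alone. The 24 h list holds more peaks to lie near, so these distances cannot be read apart from list length. The remote peaks of the 24 h list were about as wide as the near ones, with medians of 228 bp beyond 50000 bp and 246 bp within 500 bp. They were found in the 40, 56, 72 and 120 h lists in 45.3%, 17.9%, 37.2% and 40.1% of cases, against 52.3%, 13.9%, 29.2% and 43.6% for those within 500 bp. The remote share was thus lower with the 40 and 120 h lists and higher with the 56 and 72 h lists. For the E2 list alone, the shares were 9.59%, 0.228%, 7.08% and 25.3% among the remote peaks and 14.8%, 0.966%, 8.96% and 44.6% among those within 500 bp.

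At sites present in both lists the length of the mark was similar on the whole. Joining overlapping peaks gave 19642 shared loci, where 24 h peaks covered 1.12 times the length of E2 peaks. On the log2 scale, the median over loci of the 24 h length divided by the E2 length was 0.05 (quartiles -0.26 and 0.51). The 24 h length was the greater at 53.7% of loci and the E2 length at 46.0%. A ratio of 2 or more was reached at 2177 loci in favour of 24 h (11.1% of those compared) and at 814 in favour of E2 (4.14%).

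The largest gain in length was at chr16:33792387-33795571, where the E2, 24, 40, 56, 72 and 120 h lists covered 509, 2893, 2867, 1914, 1680 and 0 bp. The next, chr7:73359727-73362901, had 869, 3175, 3032, 2935, 1584 and 0 bp. Both loci held a peak in E2, longer peaks in all restored lists and none at 120 h. At chr13:37139100-37141577 the covered length was instead 2478 bp at 24 h, against 243 bp in E2, and the 120 h list kept 2258 bp. The losses were smaller. The largest, chr19:5569043-5571250, had 2208, 717, 678, 0, 499 and again 2208 bp in this order of lists, where 2208 bp is the whole locus. At chr15:78511327-78514118 the length was 1395 bp at 24 h, against 2628 bp in E2, and the 120 h list had 0 bp.

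The third question was whether the differences gathered in particular stretches of the genome. Peaks were counted by their midpoints in bins of 100 kb, of which 8387 held a peak in either list. The 24 h list had more peaks in 4598 bins, the E2 list in 1675, and the numbers were equal in 2114. A difference of 5 peaks or more in favour of 24 h was found in 652 bins (7.77%) and in favour of E2 in 100 bins (1.19%). The 652 bins held 33.6% of all peaks of the 24 h list alone, against 21.0% of the whole 24 h list. Of the 652 bins, 58 had no E2 peak, against 1030 of all 8387 bins. The 652 bins held a median of 11 peaks at 24 h and 4 in E2. For the 100 bins the medians were 8.5 peaks at 24 h and 15 in E2. Both sets were chosen for their difference in peaks, so these shares and medians follow in part from the choice. With the 24 h list cut to its 27876 widest peaks, 235 bins favoured 24 h and 239 favoured E2. Differences between lists of equal length sum to 0 over bins, so this balance is set largely by construction, and the cut also removed the narrowest peaks of the 24 h list.

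**Figure D4:**
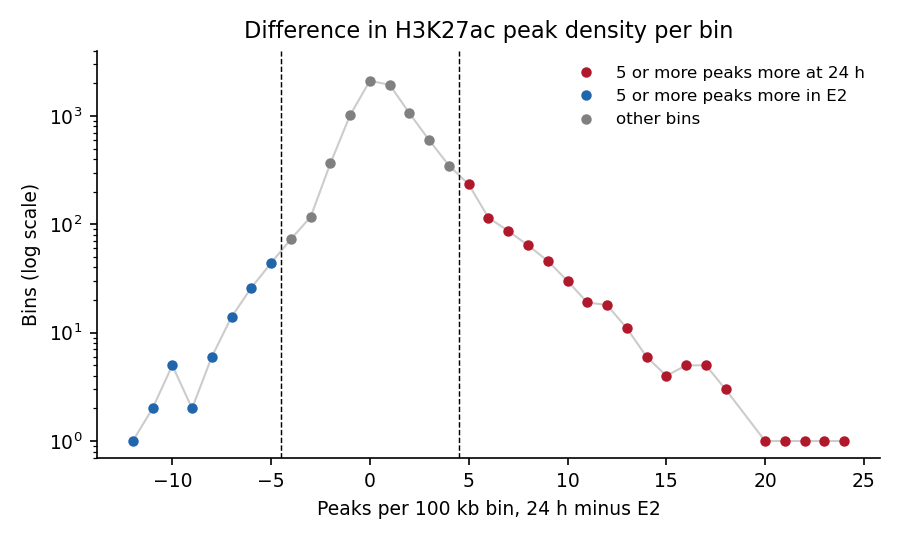
Number of 100 kb bins (log scale) by the difference in H3K27ac peaks, 24 h minus E2, with dashed lines at a difference of 5 peaks. The largest excess at 24 h is 24 peaks in a bin and the largest excess in E2 is 12.

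Of the 5 bins with the largest gains, 2 were neighbours. On chromosome 15, the bin from 63400001 to 63500000 held 4, 28, 27, 15, 24 and 13 peaks in the E2, 24, 40, 56, 72 and 120 h lists. The next bin, from 63500001 to 63600000, held 10, 32, 24, 13, 16 and 8 peaks. Each of them held 25 peaks absent from the E2 list. On chromosome 17, the bin from 44800001 to 44900000 had 22 such peaks among its 32 at 24 h, against 9 peaks in E2. The bin on chromosome 16 from 49700001 to 49800000 held 29 peaks at 24 h, against 8 in E2, and 30 at 72 h. On chromosome 13, from 37900001 to 38000000, there were 31 at 24 h, against 11 in E2. With the 24 h list cut to 27876 peaks these 5 bins held 20 to 24 peaks at 24 h, more than the 4 to 11 of the E2 list.

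The bins with the largest deficits were dense in E2. This follows in part from the choice, since a deficit cannot exceed the number of E2 peaks. On chromosome 4, from 134600001 to 134700000, there were 11 peaks at 24 h, against 23 in E2, and 5, 0, 5 and 4 at 40, 56, 72 and 120 h. A bin on chromosome 2, from 179900001 to 180000000, had 4 peaks at 24 h, against 15 in E2, and also 4 at 120 h. On chromosome 10, from 79700001 to 79800000, the counts were 13 at 24 h, against 24 in E2, and on chromosome 5, from 115000001 to 115100000, 6 against 16. Another bin of chromosome 2, from 167500001 to 167600000, had 15 peaks at 24 h, against 25 in E2, but 48 at 120 h. The deficit at 24 h was thus shared with the 120 h list in some of these bins and not in others.

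Peaks of either list closer than 12.5 kb, a gap often used for joining enhancers into clusters, formed 13617 clusters. Peaks of both lists were present in 10161, of the 24 h list alone in 2385 and of the E2 list alone in 1071. A cluster was called different if its covered length differed 2-fold and by 2000 bp or more. This held for 372 clusters in favour of 24 h (2.73%) and for 10 in favour of E2 (0.0734%). Cutting the 24 h list to its 27876 widest peaks gave 273 and 23. This cut matched the number of peaks and not their length. The cut list still covered 1.23 times the E2 length, which favours 24 h in these counts.

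The 372 clusters were chosen on E2 and 24 h, so only the other lists add to the picture. Their covered length summed to 472, 1785, 1320, 616, 916 and 1304 kb in the E2, 24, 40, 56, 72 and 120 h lists. As a share of all that each list covered, this was 4.41%, 12.2%, 12.4%, 30.8%, 11.1% and 6.07%. The 24 h, 40 h and 72 h lists thus gave these clusters a similar share of their length, the short 56 h list a far larger share, and the 120 h list a share nearer to that of E2. At 102 of the 372 clusters the 120 h length exceeded the 24 h length, and at 54 it was 0 bp. The 10 clusters in favour of E2 summed to 48.2, 18.4, 13.0, 0.186, 7.52 and 29.5 kb.

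The 5 largest gains, ranked by the difference in covered length alone, differed in how much was covered at 120 h. At chr16:49766654-49819178, a stretch of 52525 bp, the E2, 24, 40, 56, 72 and 120 h lists covered 3247, 21530, 18644, 10111, 19396 and 13999 bp. The cluster chr15:63477538-63554793, which spans the 2 neighbouring bins of chromosome 15, had 2934, 21003, 19824, 10677, 11694 and 4567 bp. At chr16:33745562-33797767 the lengths were 3025, 20165, 16673, 10688, 13222 and 2160 bp, and this cluster contained the shared locus with the largest gain. On the same chromosome, chr16:95623683-95687991 had 22676 bp at 24 h, against 6431 bp in E2, and 13251 bp in the 120 h list. The cluster chr7:73320938-73395449 had 24244 bp at 24 h, against 12263 bp in E2, and the 120 h list had 3842 bp. This cluster fell short of the 2-fold limit and was not called different. In all 5 the 24 h length was the largest of the 6 lists, and in 2 of them the 120 h length was below that of E2. The 5 were chosen for a large 24 h length, within borders set by E2 and 24 h peaks alone. That the 24 h length was the largest therefore follows in part from the choice. Among the 372 called clusters, chosen likewise, it was the largest in 252.

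**Figure D5:**
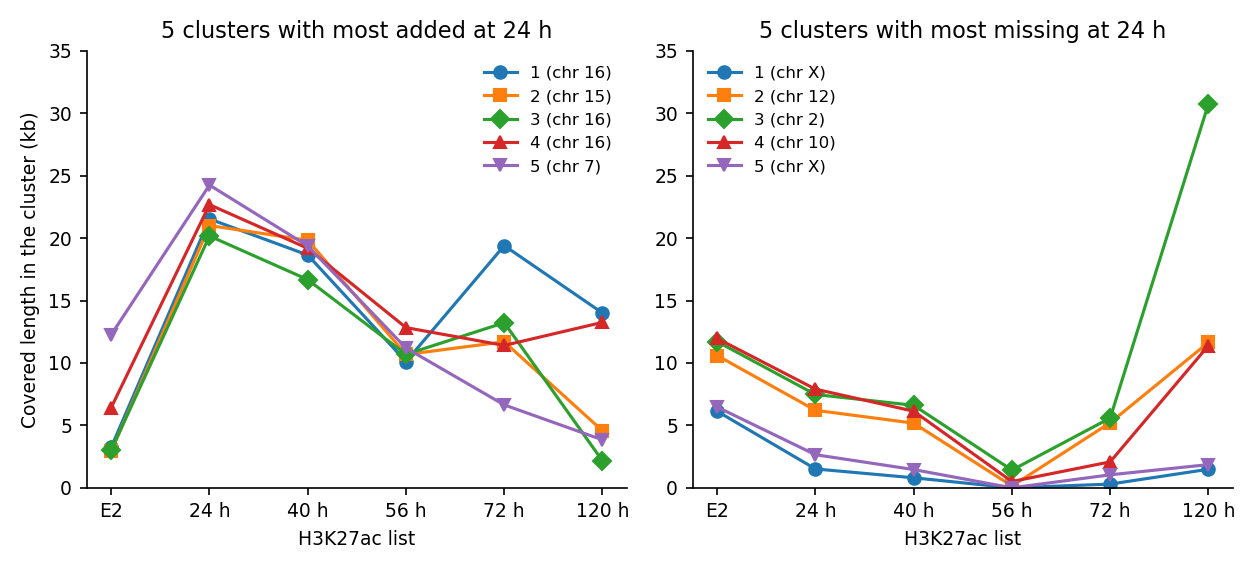
Length covered by H3K27ac peaks (kb) in the 6 lists. Shown are the 5 clusters with the largest gain (left) and the 5 with the largest loss (right) at 24 h relative to E2. They are ranked by the difference in bp, whether or not they met the 2-fold limit. Lines join lists of the same cluster. The 5 on the left reach 20165 to 24244 bp at 24 h, against 2934 to 12263 bp in E2, and those on the right have 1512 to 7902 bp at 24 h, against 6130 to 11962 bp in E2.

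The losses, likewise ranked by the difference in covered length alone, included a pair of clusters close together on the X chromosome. At chrX:11700183-11715581 peaks covered 6130, 1512, 804, 0, 300 and 1488 bp in the E2, 24, 40, 56, 72 and 120 h lists. At chrX:11655526-11668813 the lengths were 6468, 2653, 1463, 0, 1043 and 1860 bp. Both were shorter in every other list than in E2. In contrast, chr12:113816485-113868092 and chr10:80380247-80450938 had 6208 and 7902 bp at 24 h, against 10595 and 11962 bp in E2, and 11645 and 11392 bp at 120 h. At chr2:167565819-167631424 the length was 7475 bp at 24 h, against 11708 bp in E2, and 30757 bp at 120 h. The clusters of chr12, chr10 and chr2 fell short of the 2-fold limit and were not called different, whereas the pair on the X chromosome met it.

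The clusters with the longest acetylation in E2 were largely kept at 24 h. Among the 100 with the most covered length in E2, the summed length was 875 kb at 24 h, against 843 kb in E2, and 44 were longer at 24 h. In the 40, 56, 72 and 120 h lists the sums were 691, 159, 395 and 895 kb, so the list without E2 covered as much. The ratio of 24 h over E2 length had a median of 0.954 and ranged over clusters from 0.247 to 3.53. As a share of the list, however, these clusters held 5.96% of the 24 h length and 7.87% of the E2 length. They had been chosen for their E2 length, which favours E2 in such a comparison. The longest, chr17:84513618-84588716, covered 25003 bp at 24 h, against 20491 bp in E2, and 30615 bp at 120 h. The next, chr5:113536512-113610368, covered 14199 bp at 24 h, against 16376 bp in E2, and 7690 bp at 120 h.

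H3K27me3 lists of the same conditions, whose coordinates fit the same build, were used to see whether lost or gained peaks lay in Polycomb domains. Few did. An H3K27me3 peak of the 24 h list overlapped 7 of the 15301 peaks of the 24 h list alone (0.0458%) and 62 of the 7073 peaks of the E2 list alone (0.877%, 0.673 to 1.12). For shared peaks the share was 0.153% (0.106 to 0.215) counted in the 24 h list. The H3K27me3 list of E2 cells overlapped 5 peaks of the 24 h list alone and, again, 62 of the E2 list alone. At 120 h, H3K27me3 overlapped 0.320% of the peaks of the 24 h list alone, 3.86% (3.42 to 4.34) of those of the E2 list alone and 1.42% of the shared peaks counted in the E2 list. With each of these 3 H3K27me3 lists the share was higher for peaks of the E2 list alone than for shared peaks and lower for peaks of the 24 h list alone, with intervals that did not overlap. Since 1 library stands for each mark and condition, this is a description of these libraries.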

How the data were processed

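ChIP-seq peak lists of ER-Hoxa9-Lys-GFP cells were used: 6 for H3K27ac and 5 for H3K27me3, 1 library each, grouped by the titles and treatment labels. The deposited files hold chromosome, start and end coordinates, classed as other, with no score or count. Bowtie2 2.0, BWA, MACS2 2.0, mm9 and mm10 are named in the submitters' processing notes. Their roles, the calling threshold, read depth and use of inputs are not given in the sources used here. For both marks the build was taken as mm9 because peaks reached 196958111 (H3K27ac) and 197003115 (H3K27me3) on chromosome 1, past the end of that chromosome in mm10. The 10 lists of other targets, a genome sequence and a gene annotation of mm9 were not used here.

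Chromosomes 1 to 19 and X were used. Overlap, covered length and distance were computed in Python 3.11.15 with numpy 2.4.6 and scipy 1.17.1, tested on simulated peaks and checked against bedtools 2.31.1. No replicate exists, so no test was run; the labels give no replicate numbers that pair samples. Regions were named by rule: the 10 widest peaks of either list alone, the 5 shared loci, bins and clusters with the largest difference in each direction, and the 5 longest clusters of E2; not all are printed. The rule, measures and comparisons were chosen with earlier results of these data known. The width limits, the classes of presence in other lists and the equal-length count of wide peaks were chosen after seeing the data.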

Additional observations from a re-analysis of the deposited data

How the results depend on the processing

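No paired analysis was possible because each condition had 1 library. The share of the 24 h list absent from E2 (41.5%) and of the E2 list absent at 24 h (25.4%) changed in these settings. The shares became 51.2% and 31.0% when 50% of a peak had to be covered. When a peak within 500 bp counted as overlap, they were 28.2% and 15.7%. With peaks within 1 kb merged, they were 30.8% and 21.3%. With both lists cut to peaks of median width or more, they were 43.5% and 27.1%. There a wide peak that met only narrower, removed peaks counted as absent. With the lists cut to their widest peaks at equal length, they were 34.5% and 34.5%. The 24 h share was the higher in each of these settings but the last, where equal length gives nearly equal shares and a near balance of bins by construction, and which also drops the narrowest 24 h peaks. Equal length also gave a covered length ratio of 1.23 (1.42 with peaks merged, 1.37 in full), median widths of 314 and 211 bp for peaks of the 24 h and E2 lists alone, 235 and 239 bins, 23 clusters in favour of E2 and, in a setting chosen after seeing the data, 410 and 9 peaks of at least 500 and 1000 bp of the E2 list alone. Peaks of the 24 h list alone were then found at 40, 56, 72 and 120 h in 57.6%, 24.8%, 38.7% and 33.4% of cases, and those of the E2 list alone in 18.8%, 1.23%, 13.0% and 29.0%. With 50% coverage the shares were 39.6%, 11.5%, 25.6% and 38.2% for the 24 h list, and 8.28%, 0.495%, 6.12% and 32.4% for the E2 list. Of the other 11 values, the counts of peaks of at least 500 and 1000 bp in the 24 h list alone cannot change at equal length. The rest, among them chromosomes 1 to 19 alone and bins of 50 kb or shifted by 50 kb, stayed within the interval of the full lists or, for counts, within 1.5 times. The files hold no peak score, so the alternative by score was replaced by width. Without read depth, a peak absent from a list may have missed its calling threshold, so absence of a peak is not absence of acetylation.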

Other observations

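The excess of peaks at 24 h was uneven over chromosomes. The number of peaks at 24 h over that in E2 ranged from 1.10 on the X chromosome and 1.14 on chromosome 8 to 1.58 on chromosome 13 and 1.62 on chromosome 3. Peaks of the 24 h list without an E2 peak made up 33.0% (29.0 to 37.2) of that list on the X chromosome and 34.4% (32.2 to 36.6) on chromosome 8, against 48.8% (46.7 to 50.8) on chromosome 1 and 50.1% (47.6 to 52.6) on chromosome 13. The share of E2 peaks without a 24 h peak was highest on the X chromosome, at 31.8% (27.7 to 36.1). It was lowest on chromosome 3, at 20.1% (17.8 to 22.7). On chromosome 13 it was 24.5% (21.8 to 27.3), close to the 25.4% of the whole E2 list. Chromosome 11, which held the most peaks of both lists, with 2998 at 24 h against 2517 in E2, had a ratio of 1.19.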
